A study of Mus musculus with 18 samples.

Results

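Nlrc5, Tap1, Tap2, Tapbp, Tapbpl and Erap1 are the 6 genes described here. They were chosen by name, as the class I regulator Nlrc5 with genes of peptide loading, by a rule that uses no measured value. They are 6 of the 55487 genes listed in each deposited table, and all 6 passed the low-count filter that left 17338 genes for testing. Pancreatic islets of adult male C57BL/6JRj mice, labelled C57BL/6, were kept in culture as whole islets, for 20 h with interferon gamma (IFNγ) at 5 ng/mL or without it, and were then dispersed and separated by cell sorting. Alpha IFNγ, alpha control, beta IFNγ, beta control, delta IFNγ and delta control held 3 libraries each, 18 in all, from mice with no engineered allele named. From the Epcam-positive cells without CD45, TER119 or CD31, the gate for delta cells was high CD24, and low CD24 was split by CD71 into beta (positive) and alpha (negative) cells.

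Nearly all cells show peptides from their own proteins on MHC class I, where CD8 T cells read them. The proteasome cuts the proteins, the TAP transporter (the paired subunits TAP1 and TAP2) carries the peptides into the endoplasmic reticulum, the aminopeptidase ERAP1, called ERAAP in mice, trims them, and tapasin (the product of Tapbp) holds the empty class I molecule to TAP until a fitting peptide is bound. TAPBPR, the product of Tapbpl, edits the peptides without TAP, and NLRC5, a member of the NOD-like receptor family, switches on transcription of class I genes together with factors bound to their promoters. Beta cells in type 1 diabetes are killed by CD8 T cells that read such peptides.

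Library totals lay between 6128845 and 11531734 expected counts. Levels are given as CPM, rounded expected counts over the TMM-scaled library total, and for comparisons between genes as TPM, which is also scaled to transcript length. Endocrine markers followed the labels, with 6 alpha markers summing to 77030 CPM or more in alpha libraries and to at most 3195 CPM in beta and delta libraries. The 8 beta markers summed to 43670 CPM or more in beta libraries and to at most 11510 CPM elsewhere (the highest in alpha control), and the 5 delta markers to 11230 CPM or more in delta libraries and to at most 163 CPM elsewhere. In delta cells the delta marker sums were 11230 to 16750 CPM with IFNγ against 16950 to 37720 CPM in control, without overlap. Sst by itself did overlap, at 9561 to 14820 CPM with IFNγ against 14720 to 35920 CPM in control. The median log2 fold change of the 5 delta markers in delta cells was -0.24, and the part of these markers in the results was not tested. The 9 immune markers summed to between 0.776 and 5.10 CPM (Cd3e was at 0 in all groups), and no tested gene of the 8 endocrine, exocrine, immune, endothelial and mesenchymal marker lists passed the test for IFNγ in any cell type. The low-count filter left 1 of 9 immune, 1 of 6 endothelial and 2 of 6 mesenchymal markers for that test. Base composition differed between libraries: the GC balance, the median log2 level (relative to the mean of all libraries) of the 4330 tested genes lowest in GC minus that of the 4330 highest in GC, was 1.00, -0.56 and 0.86 in alpha IFNγ libraries 1 to 3, against -0.76 to -0.47 in alpha control. It was -0.68 to -0.37 in beta IFNγ, against -0.71 to 0.23 in beta control, and 0.43 to 0.85 in delta IFNγ, against -0.10 to 0.86 in delta control. Alpha IFNγ 2 and delta control 3 stood apart from their groups by this measure. Beta control 3 deviated from its group mean by 0.48 and beta control 1 by -0.45, so beta control 3 was hardly farther out. Beta control 3 is the one beta library whose file name gives papain in place of CD71. Alpha IFNγ 2, beta control 3 and delta control 3 are called below the libraries that stand apart. The responses are given with and without these libraries, and in the text a gene is called higher or lower only at an adjusted p under 0.05 in edgeR's quasi-likelihood F-test.

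Nlrc5, Tap1 and Tapbp were higher with IFNγ in all 3 endocrine cell types, as were 0.721% of tested genes, and Tap2, Tapbpl and Erap1 were higher in 2 of the 3. In alpha cells 4 of the 6 genes were higher with IFNγ (Nlrc5, Tap1, Tapbp and Erap1), where 0.94% of all tested genes were called higher. In beta cells all 6 were higher, against 1.06% of tested genes. In delta cells 5 of 6 were higher (all but Erap1), against 1.21% of tested genes. The median log2 fold change of the 6 genes was 1.24 in alpha, 2.34 in beta and 1.63 in delta cells, beside -0.01, 0.0 and -0.05 over all tested genes. No gene of the 6 was lower in any cell type, where 0.0346%, 0.00577% and 0.185% of tested genes were lower in alpha, beta and delta cells. In bulk RNA from sorted populations, a response of more cells and more RNA per responding cell cannot be told apart.

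Offsets that level the GC balance of the libraries brought the count to 6 of 6 in every cell type, where 1.03%, 1.21% and 1.52% of tested genes were then higher in alpha, beta and delta cells. DESeq2 called 5, 6 and 6 genes and the fit without the low-count filter 6 in each cell type. Over all tested genes, DESeq2 called 389 higher in alpha and 288 in delta cells. The fit without the filter called 990, 259 and 415 of 32335 higher in alpha, beta and delta cells. Without the filter the log2 fold changes hardly moved while the adjusted p fell steeply. For Nlrc5 in alpha cells the value was 3.59 (edgeR adjusted p = 8.54e-38), against 3.55 with the filter (9.01e-06). The cause of this fall was not tested. With the date in the file names as a fixed term, 5 genes passed in alpha cells (Tap2 among them), 6 in beta and 2 in delta cells (Nlrc5 and Tap1), where no date held both IFNγ and control libraries and date and treatment cannot be told apart. The delta log2 fold changes under that term were 2.11 for Tap2 (edgeR adjusted p = 0.0738), 1.79 for Tapbp (0.21), 1.68 for Tapbpl (0.286) and 0.28 for Erap1 (0.842), the first 3 of them larger than without it. The counts without alpha IFNγ 2, beta control 3 and delta control 3 together were 4, 6 and 6 in alpha, beta and delta cells. Of the 17947 genes then tested, 2455 were higher in alpha and 375 in delta cells. With all libraries these were 163 and 209 of 17338, so the counts of the 6 genes are not alike in weight. Leaving out alpha IFNγ 2 by itself kept 4 calls in alpha cells, while the share of all tested genes called higher there grew to 9.97%. The GC balance of alpha IFNγ 2 (-0.56) lay within that of alpha control (-0.76 to -0.47), and the alpha IFNγ libraries that remain had 1.00 and 0.86. Without alpha IFNγ 2, treatment and GC balance therefore cannot be told apart in alpha cells. The alpha log2 fold changes without that library were 3.40 for Nlrc5, 2.63 for Tap1, 0.32 for Tap2, 0.85 for Tapbp, 0.46 for Tapbpl and 1.58 for Erap1. Without beta control 3 the beta values were 3.88, 4.61, 2.34, 1.97, 1.60 and 1.01 in the same order of genes, and without delta control 3 the delta values were 4.40, 4.19, 1.61, 1.27, 1.28 and 1.13.

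**Figure D1:**
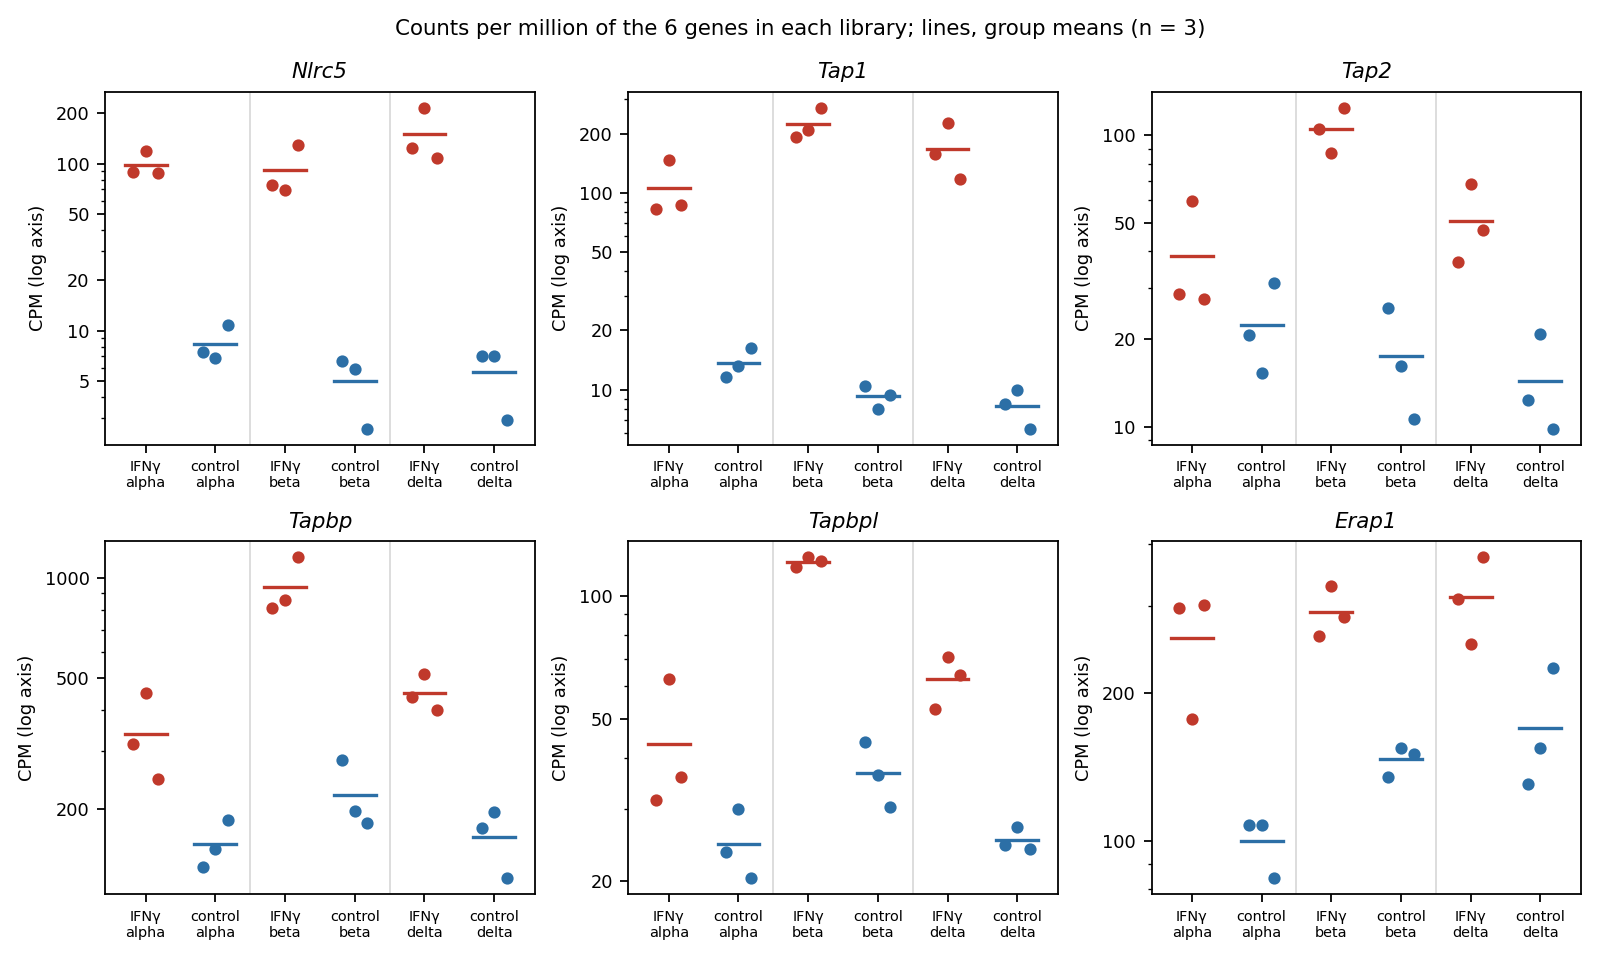
CPM (log axis) of the 6 genes in each of the 18 libraries, IFNγ left of control within each cell type, with a line at each group mean. Nlrc5 and Tap1 show no overlap between IFNγ and control in any cell type, Tap2 overlaps in alpha cells, and Tapbp and Tapbpl are highest in the beta IFNγ libraries.

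Nlrc5 (ENSMUSG00000074151, GRCm38 chromosome 8, 94434356 to 94527272, plus strand) encodes the class I transactivator, and its control transcript was the scarcest of the 6. In alpha cells it had 89.2, 119 and 87.6 CPM with IFNγ, against 7.41, 6.825 and 10.8 CPM in control. In beta cells it had 74.6, 69.5 and 129.5 CPM with IFNγ, against 6.55, 5.85 and 2.59 CPM in control. In delta cells it had 124, 216 and 108 CPM with IFNγ, against 7.06, 7.03 and 2.91 CPM in control. Every IFNγ library lay above every control library of its cell type, and 9.62%, 6.49% and 7.71% of tested genes also showed this lack of overlap, by whatever margin, in alpha, beta and delta cells. The log2 fold change was 3.55 ± 0.38 (SE, n = 3 against 3) in alpha cells, an 11.7-fold difference (edgeR adjusted p = 9.01e-06). It was 4.18 ± 0.40 in beta cells, 18.1-fold (edgeR adjusted p = 1.34e-06). It was 4.72 ± 0.40 in delta cells, 26.3-fold (edgeR adjusted p = 2.66e-07). Within the pair of dates that held both treatments, the difference was 3.64 and 3.96 in alpha cells and 3.52 and 3.46 in beta cells (log2, 1 library against 1). By mean CPM the IFNγ-treated order was delta, alpha, beta, and neighbours in this order overlapped and did not pass the test. Nlrc5 has 9 transcript models, and the abundance-weighted length that RSEM assigned it moved between 1508 and 5394 bases over the 18 libraries.

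Tap1 (ENSMUSG00000037321, chromosome 17, 34187553 to 34197225, plus strand) encodes the TAP subunit whose gene lies head to head with the immunoproteasome subunit gene Psmb9 in the MHC. In alpha cells Tap1 had 83.1, 147 and 86.7 CPM with IFNγ, against 11.6, 13.1 and 16.35 CPM in control. In beta cells it had 192, 209 and 271 CPM with IFNγ, against 10.4, 7.96 and 9.43 CPM in control. In delta cells it had 157, 228 and 117 CPM with IFNγ, against 8.40, 9.95 and 6.33 CPM in control. The groups did not overlap in any cell type, and alpha IFNγ 2 was the highest of the alpha libraries. The log2 fold change was 2.94 ± 0.28 in alpha (edgeR adjusted p = 1.72e-06), 4.60 ± 0.30 in beta (edgeR adjusted p = 9.81e-09) and 4.34 ± 0.30 in delta cells (edgeR adjusted p = 1.24e-08; SE, n = 3 against 3), which is 7.67-fold, 24.2-fold and 20.3-fold. The difference within dates was 2.70 and 3.63 in alpha cells and 4.68 and 4.18 in beta cells. Psmb9, whose proteasome subunit favours peptides that fit class I, was also higher in all 3 cell types, with log2 fold changes of 2.91, 4.12 and 3.21 in alpha, beta and delta cells. The annotated exons of both genes share 212 bases on opposite strands, and the sources used here do not say whether the counting used strand.

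Tap2 (ENSMUSG00000024339, chromosome 17, 34203527 to 34216321, plus strand) encodes the partner subunit, without which TAP moves no peptide. In alpha cells Tap2 had 28.6, 59.4 and 27.4 CPM with IFNγ, against 20.6, 15.3 and 31.2 CPM in control. In beta cells it had 105, 87.4 and 124 CPM with IFNγ, against 25.6, 16.2 and 10.65 CPM in control. In delta cells it had 36.7, 68.0 and 47.5 CPM with IFNγ, against 12.4, 20.9 and 9.86 CPM in control. Only in alpha cells did IFNγ and control libraries overlap, with alpha control 3 above 2 of the 3 IFNγ libraries. Tap2 was higher in beta (2.59 ± 0.39, edgeR adjusted p = 4.06e-04) and delta cells (1.82 ± 0.38, edgeR adjusted p = 0.0133), and in alpha cells the log2 fold change was 0.78 ± 0.37 and did not pass the test (edgeR adjusted p = 0.231, 95% interval of the log2 fold change 0.0002 to 1.55). Without alpha IFNγ 2 the alpha value was 0.32 (edgeR adjusted p = 0.556), and it passed with GC offsets (1.25, adjusted p = 0.014), with the date term (1.12, 0.03) and without the low-count filter (0.81, 0.0298). The delta call was lost without delta IFNγ 2 (adjusted p = 0.0809), delta control 1 (0.0935) or delta control 3 (0.0809).

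The balance of the transporter's subunit transcripts shifted towards Tap1. With IFNγ the Tap1 to Tap2 ratio of TPM was 1.79, 2.37 and 3.27 in alpha, 1.58, 1.93 and 2.05 in beta and 3.93, 3.18 and 2.24 in delta cells. In control it was 0.414, 0.854 and 0.327 in alpha, 0.376, 0.498 and 0.840 in beta and 0.569, 0.492 and 0.614 in delta cells. Every IFNγ library had more Tap1 than Tap2 per length, and every control library had less. The log2 ratio was 2.13 higher with IFNγ on average over the cell types (2.27 in alpha, 1.73 in beta, 2.40 in delta), and an exact permutation test of the treatment labels within cell types, two-sided over 8000 arrangements, gave p = 2.50e-04, the smallest it can give (4.17e-04 adjusted over the 5 ratios tested). The difference of this change between cell types was not detected (exact permutation, adjusted p of 0.869 or more for the 3 pairs). The CPM ratio, which uses no transcript length, gave 2.18, where the lengths assigned to Tap2 moved between 1935 and 3091 bases.

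**Figure D2:**
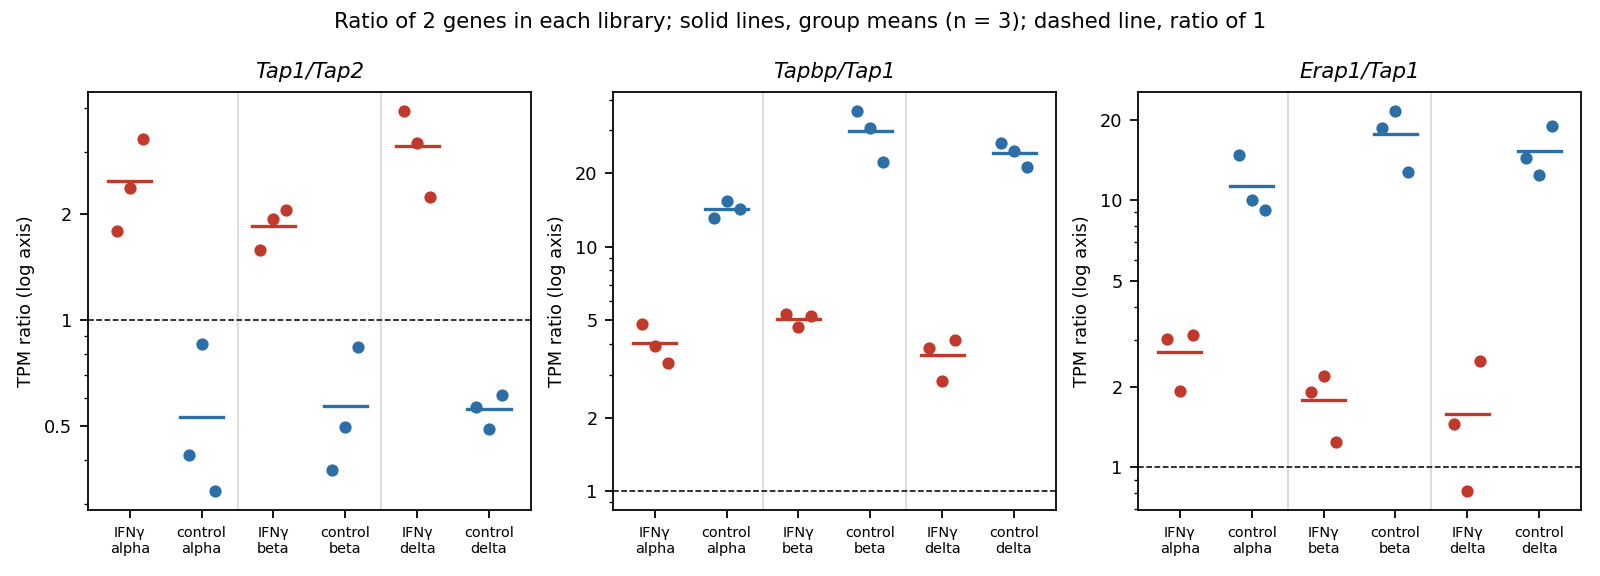
TPM ratio (log axis) of Tap1 to Tap2, Tapbp to Tap1 and Erap1 to Tap1 in each library, IFNγ left of control, with group means as solid lines and a ratio of 1 as a dashed line. The Tap1 to Tap2 ratio lies above 1 in all 9 IFNγ libraries and below 1 in all 9 control libraries.

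Tapbp (ENSMUSG00000024308, chromosome 17, 33915899 to 33929292, plus strand) encodes tapasin, and it was the most abundant of the 6 genes per length in every group. In alpha cells it had 315, 450.4 and 247.5 CPM with IFNγ, against 133, 151 and 185 CPM in control. In beta cells it had 812, 860.5 and 1157 CPM with IFNγ, against 283, 198 and 181 CPM in control. In delta cells it had 436, 514.5 and 398 CPM with IFNγ, against 176, 196 and 124 CPM in control. No cell type showed overlap, and the beta IFNγ libraries were above all others. The log2 fold change was 1.11 ± 0.25 in alpha (edgeR adjusted p = 0.0356), 2.09 ± 0.26 in beta (edgeR adjusted p = 3.65e-05) and 1.44 ± 0.25 in delta cells (edgeR adjusted p = 0.00245). The alpha call is close to the threshold. It was lost without alpha IFNγ 1 (adjusted p = 0.0725), without alpha control 1, 2 or 3 (0.157, 0.171 and 0.0558), and without beta IFNγ 2, beta control 2 or delta IFNγ 1, libraries of the other cell types (0.0504, 0.0513 and 0.0522). Exons of Tapbp share 149 bases with exons of Zbtb22 on the same strand, and Zbtb22 had between 39 and 188 expected counts per library. With GC offsets the alpha value of Tapbp was 1.65 with a 95% interval of 1.31 to 1.99.

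Tapbpl (ENSMUSG00000038213, chromosome 6, 125223933 to 125231860, minus strand) encodes TAPBPR and has a single transcript model. In alpha cells it had 31.6, 62.6 and 36.0 CPM with IFNγ, against 23.5, 30.0 and 20.3 CPM in control. In beta cells it had 118, 124 and 121.5 CPM with IFNγ, against 43.9, 36.3 and 30.4 CPM in control. In delta cells it had 52.75, 70.8 and 63.9 CPM with IFNγ, against 24.4, 27.1 and 23.9 CPM in control. IFNγ libraries lay above control libraries throughout, narrowly so in alpha cells apart from alpha IFNγ 2. Tapbpl was higher in beta (1.72 ± 0.23, edgeR adjusted p = 1.25e-04) and delta cells (1.31 ± 0.23, edgeR adjusted p = 0.00258). In alpha cells the log2 fold change was 0.82 ± 0.23 and did not pass the test (edgeR adjusted p = 0.112). It was 0.46 without alpha IFNγ 2 (edgeR adjusted p = 0.104), and it passed with GC offsets (1.09, adjusted p = 3.49e-04), in DESeq2 (0.81, 0.029) and without the low-count filter (0.86, 0.0168). Tapbp and Tapbpl, the pair of related peptide editors, kept a TPM ratio of 6.40 to 9.32 in alpha, 6.67 to 9.27 in beta and 6.07 to 8.20 in delta cells with IFNγ, against 5.40 to 8.83, 5.10 to 6.47 and 5.02 to 7.57 in control. The mean change of this log2 ratio was 0.26 and did not pass (exact permutation, p = 0.065, adjusted p = 0.0813), but with a pseudocount of 1 TPM it was 0.33 and did (adjusted p = 0.0297), as it did without alpha control 3 (0.34, adjusted p = 0.02).

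Erap1 (ENSMUSG00000021583, chromosome 13, 74639568 to 74693201, plus strand) encodes the trimming aminopeptidase, and its change was the smallest in beta and delta cells. In alpha cells it had 298, 177 and 301 CPM with IFNγ, against 108, 108 and 84.1 CPM in control. In beta cells it had 261, 329.6 and 284 CPM with IFNγ, against 135, 154 and 150.0 CPM in control. In delta cells it had 309.7, 251 and 376 CPM with IFNγ, against 130.3, 154 and 225 CPM in control. The groups did not overlap, and alpha IFNγ 2 was here the lowest of the alpha IFNγ libraries, where for the other 5 genes it was the highest. Erap1 was higher in alpha cells (1.37 ± 0.24, edgeR adjusted p = 0.00251) and in beta cells (0.99 ± 0.23, edgeR adjusted p = 0.0463), and in delta cells the log2 fold change was 0.88 ± 0.23 and did not pass (edgeR adjusted p = 0.0822). The beta call of Erap1 rests on a narrow margin: it was lost without any 1 of the 6 beta libraries (adjusted p between 0.0788 and 0.274) and without alpha IFNγ 1 or 3, alpha control 1, 2 or 3, delta IFNγ 1 or delta control 2 (0.0503 to 0.0737). With the replicate number as a block common to all cell types, the beta value was 1.00 (adjusted p = 0.0508), and with a block within each cell type it passed (adjusted p = 0.0484). Whether same-numbered libraries deviate together was looked at only within cell types, and only in beta cells did every pair do so. In delta cells Erap1 passed without delta control 3 (1.13, adjusted p = 0.022), without alpha IFNγ 2 (0.88, adjusted p = 0.0333), with GC offsets (0.69, adjusted p = 0.0195), in DESeq2 (0.91, 0.0107) and without the low-count filter (0.90, 0.0108), while with the date term it was 0.28 (0.842). Exons of Erap1 share 834 bases with exons of Cast on the opposite strand, and Cast had between 76.8 and 405 expected counts per library.

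**Figure D3:**
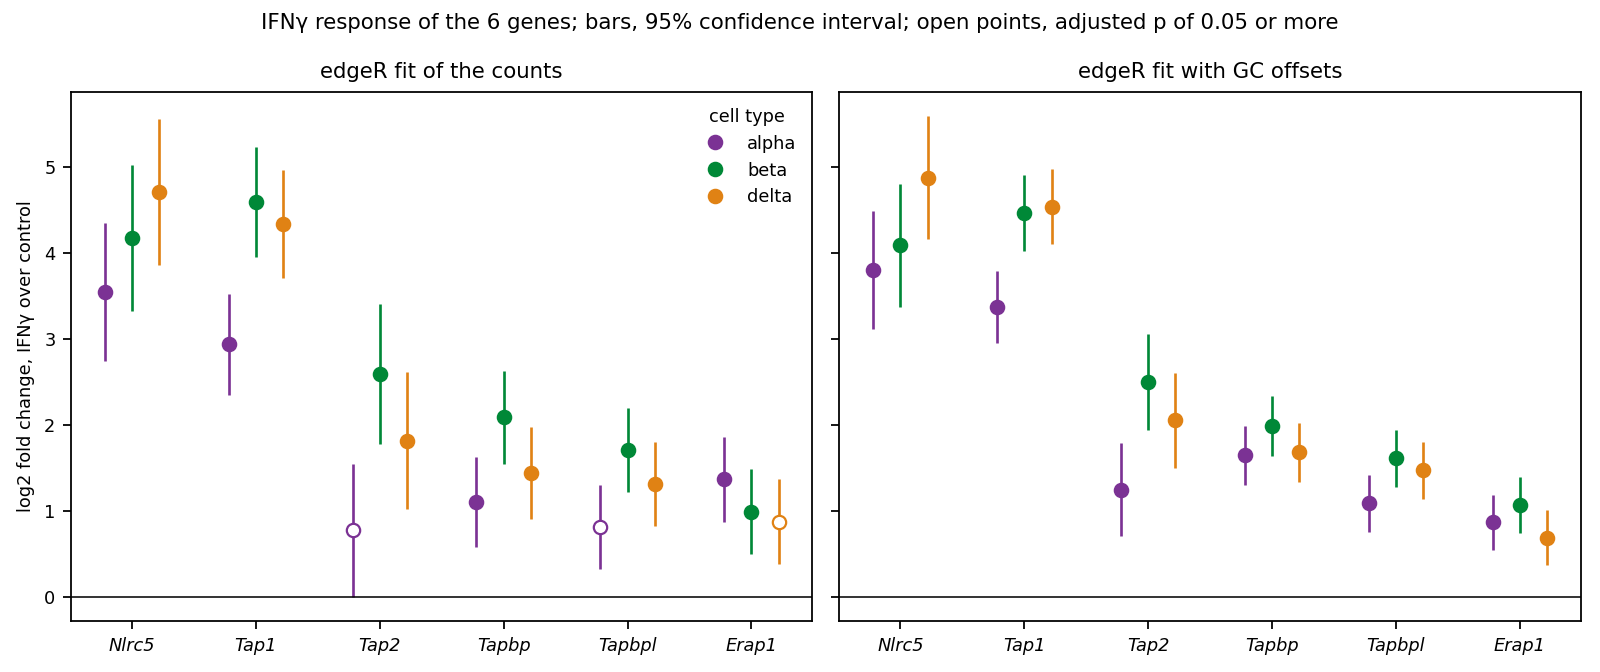
Log2 fold change of IFNγ over control with its 95% confidence interval for each gene and cell type, from the counts (left) and with GC offsets (right), where open points did not pass an adjusted p of 0.05. Nlrc5 and Tap1 lie between 2.94 and 4.72 on the left, the other genes between 0.78 and 2.59, and all 18 points pass with GC offsets.

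Per length, the order of the 6 genes changed with IFNγ below its top. Tapbp and Erap1 led in all 6 groups, with mean TPM of 82.5 and 50.1 in alpha IFNγ, against 43.3 and 33.3 in alpha control. In beta cells they had 240.4 and 81.9 TPM with IFNγ, against 48.6 and 28.9 TPM in control. In delta cells they had 92.3 and 35.7 TPM with IFNγ, against 38.8 and 23.4 TPM in control. Tap1 and Nlrc5 were the lowest pair in every control group, at 1.08 to 3.03 TPM, while with IFNγ Tap1 took the third place in all 3 cell types (20.8, 47.4 and 27.5 TPM in alpha, beta and delta cells) and Nlrc5 the fourth in alpha and delta cells (14.8 and 24.3 TPM). In beta IFNγ Nlrc5 stayed the lowest of the 6, at 11.99 TPM. The distance between tapasin and Tap1 narrowed accordingly. The TPM ratio of Tapbp to Tap1 averaged 4.03 ± 0.75 in alpha, 5.06 ± 0.33 in beta and 3.61 ± 0.69 in delta cells with IFNγ, against 14.2 ± 1.1, 29.6 ± 6.9 and 24.2 ± 2.7 in control (SD, n = 3 each). That of Erap1 to Tap1 averaged 2.70 ± 0.66, 1.79 ± 0.49 and 1.59 ± 0.85 with IFNγ, against 11.35 ± 3.0, 17.7 ± 4.5 and 15.2 ± 3.3 in control. The mean log2 changes were -2.30 for Tapbp to Tap1 and -2.86 for Erap1 to Tap1, each with the smallest exact permutation p of 2.50e-04 (adjusted 4.17e-04). These ratios and that of Tap1 to Tap2 all hold Tap1, so they are not results separate from each other or from its rise. For Nlrc5 to Tap1 the mean log2 change was -0.01 (exact permutation, p = 0.983), with 1.04 in alpha, -1.29 in beta and 0.23 in delta cells. The alpha to beta difference of this change was 2.33 and did not pass over the 15 differences tested (exact permutation, p = 0.03, adjusted p = 0.45), and on the CPM scale the values were 0.66 in alpha and -0.36 in beta cells.

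Whether the cell types differed in response was tested directly. None of the 17338 genes passed for any pair of cell types, the 6 genes included, and 13.3%, 4.74% and 4.52% of genes had an unadjusted p under 0.05 for alpha minus beta, delta minus beta and delta minus alpha. DESeq2 called 9, 4 and 4 genes, none of the 6. For the transporter and the tapasin pair the estimated difference of alpha minus beta cells was negative, and its test did not pass. The log2 response of Tap1 in alpha minus beta cells was -1.66 (95% interval -2.46 to -0.86, unadjusted p = 3.78e-04), that of Tap2 -1.82 (-2.92 to -0.71, 0.00275), that of Tapbp -0.99 (-1.73 to -0.25, 0.0115) and that of Tapbpl -0.90 (-1.58 to -0.22, 0.0124), all with an edgeR adjusted p of 0.369. For Nlrc5 it was -0.62 (-1.71 to 0.46) and for Erap1 0.38 (-0.31 to 1.07). These values moved with 1 library. Without alpha IFNγ 2 the differences of Tap1 (-1.97, edgeR adjusted p = 0.0339), Tap2 (-2.27, 0.0339), Tapbp (-1.25, 0.0386) and Tapbpl (-1.26, 0.0339) passed, along with 7.62% of all tested genes. The 2 alpha IFNγ libraries that then remain are those with a GC balance of 1.00 and 0.86. With GC offsets and all libraries, the differences were -1.10, -1.25, -0.34 and -0.52 for the same 4 genes and none passed (edgeR adjusted p = 0.868). Delta cells differed from beta cells by -0.77 (Tap2) to 0.54 (Nlrc5), all 6 intervals spanning 0, and from alpha cells most for Tap1 (1.40, 0.61 to 2.20, unadjusted p = 0.00159, edgeR adjusted p = 0.876). Without the low-count filter, Tap1 (-1.60, edgeR adjusted p = 9.64e-04) and Tap2 (-1.76, 1.83e-04) passed for alpha minus beta cells. Tap1 passed there for delta minus alpha cells (1.37, 0.0264). These estimates were close to those with the filter, and the adjusted p of that fit was far smaller throughout the 6 genes' responses.

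With IFNγ, the tapasin pair and Tap2 were called lower in alpha and delta cells than in beta cells, the delta calls between libraries that shared no date. In IFNγ-treated alpha cells, Tap1, Tap2, Tapbp and Tapbpl were lower than in IFNγ-treated beta cells, 4 of 6 genes beside 13.3% of tested genes. The log2 differences were -1.09 ± 0.26 for Tap1 (edgeR adjusted p = 0.00438), -1.46 ± 0.37 for Tap2 (0.00667), -1.48 ± 0.25 for Tapbp (2.80e-04) and -1.48 ± 0.23 for Tapbpl (1.13e-04), and the libraries of these 4 genes did not overlap, as for 19.9% of tested genes. In IFNγ-treated delta cells, Tap2 (-1.06 ± 0.36, edgeR adjusted p = 0.0302), Tapbp (-1.07 ± 0.25, 0.00305) and Tapbpl (-0.95 ± 0.23, 0.0034) were lower than in IFNγ-treated beta cells, 3 of 6 genes beside 18% of tested genes. For Tap1 the delta to beta difference was -0.42 (edgeR adjusted p = 0.204) and for Nlrc5 it was 0.71 (0.108). The Tap2 call was lost without beta IFNγ 1 (adjusted p = 0.0644), beta IFNγ 3 (0.0896), delta IFNγ 1 (0.123) or delta IFNγ 3 (0.075). With GC offsets the 4 alpha differences held (-0.73 to -1.23), those of Tapbp and Tapbpl in delta cells shrank to -0.55 and -0.56 and held, and Tap2 in delta cells did not pass (-0.55, adjusted p = 0.096). Nlrc5 then passed as higher in delta than in beta cells (1.05, adjusted p = 0.00797), as it did without beta IFNγ 3 (1.04, 0.0432), and Erap1 passed as lower than in beta cells in alpha (-0.63, 0.00466) and in delta cells (-0.47, 0.0234). With the date as a fixed term none of the 3 delta calls held, with values of -0.80 for Tap2 (edgeR adjusted p = 0.256), -0.85 for Tapbp (0.27) and -0.64 for Tapbpl (0.423). No date held both delta IFNγ and beta IFNγ libraries, so cell type and date cannot be told apart directly between them. No gene of the 6 differed between IFNγ-treated delta and alpha cells, beside 8.87% of tested genes higher and 7.13% lower, while without alpha IFNγ 2 Tap1 (0.97, adjusted p = 0.015) and Tapbpl (0.89, 0.0055) were higher in delta cells and without delta IFNγ 3 Tap1 was (0.86, 0.0301). With GC offsets and all libraries, Tap1 (0.78, edgeR adjusted p = 0.00358), Tapbp (0.52, 0.0244) and Tapbpl (0.67, 0.00396) were higher in delta than in alpha cells. Nlrc5, Tap2 and Erap1 did not pass. Acinar marker RNA also differed between these groups, with 7 of 9 acinar markers higher in delta than in beta cells and 9 of 9 higher in delta than in alpha cells under IFNγ (summed level 342 to 1325 CPM in delta IFNγ, against 1.30 to 116 CPM in beta IFNγ and 1.73 to 11.2 CPM in alpha IFNγ), and its part in the levels was not tested.

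Without IFNγ, the number of the 6 genes called between cell types was near the share of all tested genes given beside it. None of the 6 genes passed between control alpha and control beta cells, or between control delta and control beta cells, where 19.7% and 20.5% of tested genes did. Erap1 alone was higher in control delta than in control alpha cells (0.76 ± 0.23, edgeR adjusted p = 0.0274), where 10.9% of tested genes were higher. The Erap1 difference did not pass without alpha control 1, 2 or 3 (adjusted p = 0.0552, 0.0535 and 0.124), without delta control 3 (0.177) or with GC offsets (0.34, adjusted p = 0.148). With GC offsets Tapbp (-0.73, edgeR adjusted p = 0.00211), Tapbpl (-0.71, 0.0028) and Erap1 (-0.43, 0.0481) passed as lower in control alpha than in control beta cells. Nlrc5, Tap1 and Tap2 did not pass there, and 2388 of 17338 tested genes were then lower. Tapbp also passed with GC offsets as higher in control delta than in control alpha cells (0.49, edgeR adjusted p = 0.0387). The library left out also mattered elsewhere, since without alpha IFNγ 2 the lower Tapbpl of control alpha (-0.59, adjusted p = 0.0269) and of control delta cells (-0.55, 0.034) against control beta cells and the lower Tap1 of control delta against control alpha cells (-0.74, 0.0378) passed.

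The GC balance of a library moved with the levels of these genes inside the groups. Over the 18 libraries, after taking off the group means, its correlation with log2 CPM was -0.67 for Nlrc5, -0.70 for Tap1, -0.77 for Tap2, -0.79 for Tapbp, -0.78 for Tapbpl and 0.86 for Erap1. The GC content of the 6 genes falls the same way, with 41.5% for Erap1 and 52.6% to 57.1% for the others. In the libraries with more low-GC transcripts, Erap1 was thus high where the other genes were low. Deviations of Erap1 correlated with those of the other genes at -0.82 (Tap1) to -0.46 (Tapbpl), and the other 10 pairs at 0.36 to 0.85. After GC offsets these ranges were -0.58 to 0.45 for the 5 pairs with Erap1 and -0.19 to 0.62 for the other 10 pairs. These points share libraries and depth, and the correlations are given as a description.

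**Figure D4:**
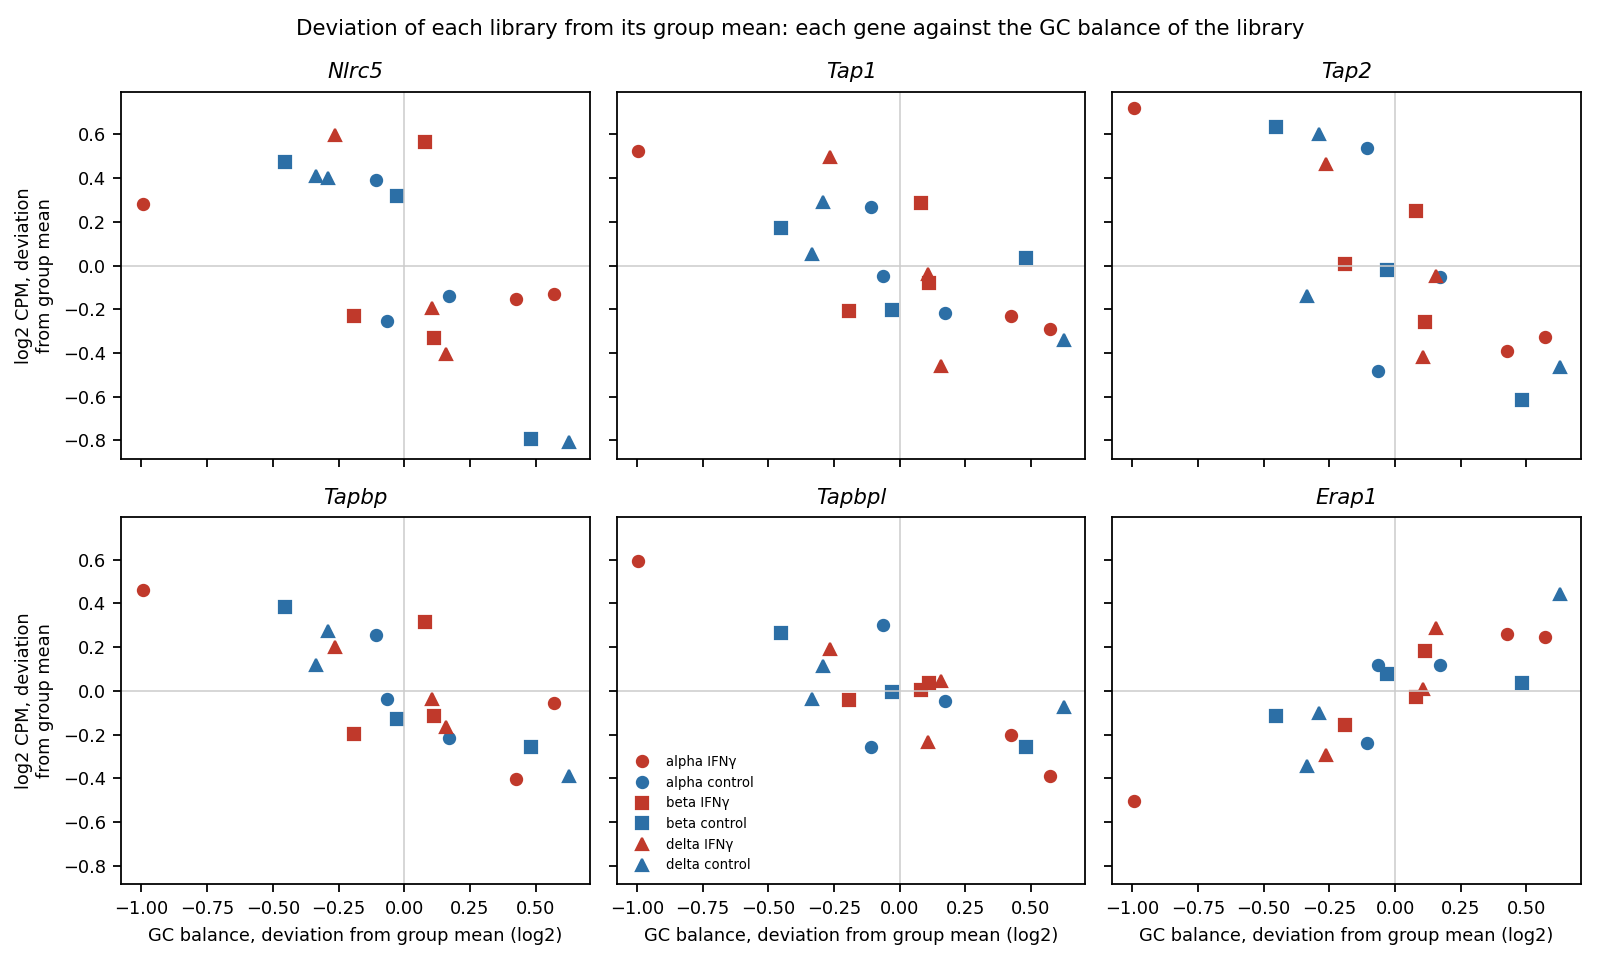
Deviation of log2 CPM from the group mean (y axis) against the deviation of the library's GC balance (x axis, log2) for each of the 6 genes, with circles for alpha, squares for beta and triangles for delta cells, red for IFNγ and blue for control. Erap1 climbs with GC balance (r = 0.86) and the other 5 genes descend (r between -0.79 and -0.67), with alpha IFNγ 2 as the point farthest to the left.

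Genes that work beside the loading machinery were counted in short lists. Of all tested genes, 0.94%, 1.06% and 1.21% were higher in alpha, beta and delta cells, and 0.0346%, 0.00577% and 0.185% lower. A short list with no call, here or in the next paragraph, is near these shares and is no result about its step. Of 9 genes, class I heavy chains and B2m, whose product is the light chain of every class I molecule, 8 were higher in each cell type and none was lower, H2-M3 being the one that did not pass. B2m had a log2 fold change of 6.03 in alpha, 4.87 in beta and 6.14 in delta cells, and H2-Q7 of 5.63, 5.67 and 7.09. H2-Q6 had 4.77, 6.03 and 7.09, and reads of these near-identical Qa genes may be shared out between copies. Of 5 immunoproteasome and PA28 activator genes, 3 were higher in alpha, 5 in beta and 4 in delta cells. Psmb8 was 7.58-fold, 10.7-fold and 8.09-fold higher and the activator subunit Psme1 2.58-fold, 4.19-fold and 3.00-fold higher in alpha, beta and delta cells. The 3 constitutive catalytic subunits that the immunoproteasome replaces had no call, with log2 fold changes of 0.04, -0.04 and 0.12 for Psmb7 and -0.64, 0.20 and -0.37 for Psmb6.

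Further along the path, none of 6 general chaperones of the endoplasmic reticulum that serve class I folding passed in any cell type, with log2 fold changes of 0.30, -0.17 and -0.06 for Hspa5 and 0.70, -0.01 and 0.02 for Pdia3, the oxidoreductase bound to tapasin. None of 7 other peptidases of antigen processing passed either, among them Lnpep, which trims peptides for cross-presentation (0.52, -0.21 and -0.07), and Nrdc (0.21, 0.08 and 0.12). Among class I promoter factors and activators, Irf1, an early IFNγ target, was higher with log2 fold changes of 1.88, 2.32 and 2.27 in alpha, beta and delta cells. Ciita, the class II counterpart of Nlrc5, was higher in beta (3.05) and delta cells (3.66), while in alpha cells its log2 fold change was 2.10 (edgeR adjusted p = 0.066). The RFX and NF-Y subunits with which NLRC5 acts on class I promoters had no call apart from Rfx5 in delta cells (0.80). Of 6 other NOD-like receptor genes, 3 passed the low-count filter and none was called, with -0.52, 0.41 and 0.12 for Nod1.

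The genes whose levels followed each of the 6 most closely over the 18 libraries were found by Pearson correlation of log2 CPM over all tested genes. H2-Q6 (0.99), Rnf213 (0.98), Irgm2 (0.98), H2-Q7 (0.98) and Gbp4 (0.97) were most like Nlrc5, and H2-Q4 (0.99), Irf1, Parp12, Gm12250 and H2-K1 (each 0.98) most like Tap1. Psmb10 (0.97), Psme2 (0.95), Trafd1, Oas1a and Parp10 (each 0.94) were most like Tap2. H2-T22 led for both Tapbp (0.98) and Tapbpl (0.95), and Parp10, Psmb10, Rnf19b and Shisa5 completed the list of 5 for each. Nampt (0.96), Cenpj (0.95), Serpinb9 (0.95), Enpp4 (0.94) and Tnfsf10 (0.93) were most like Erap1. The libraries of a group share treatment and cell type, which these correlations contain.

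Promoter windows of 250 bases before the RefSeq start site (GRCm38.p6) were read for Tap1, Tapbp and Erap1, 3 of the 6 genes. That start lies 3 bases after the first start annotated in GENCODE M21 for Tap1, 3579 bases after it for Tapbp and 285 bases after it for Erap1, so the windows of Tapbp and Erap1 lie inside the annotated genes, and the sequence before their first starts was not searched. They were searched on both strands for a GAS site (TTCNNNGAA, the gamma-activated site), an IRF pair (the element of interferon regulatory factors), a CCAAT box (CCAAT, the element of NF-Y) and a kappa B site (the element of NF-kappa B), which 7.01%, 2.97%, 33.8% and 0.357% of 32817 windows of the same length hold. Tap1 held 1 CCAAT box, 222 to 218 bases before its start, and Tapbp held 2 on the opposite strand, at 248 to 244 and 165 to 161 bases. They are printed with flanking plus-strand bases and the motif in capitals because CCAAT boxes are the only ones of these motifs found in the windows of these 3 genes. Erap1 held none of the 4 motifs in its window. The box of Tap1 is also the one 8 to 4 bases before the start of Psmb9, which lies 226 bases away on the other strand.
Tap1, chr17:34187324-34187348: gctcggctttCCAATcagcggctgc
Tapbp, chr17:33919228-33919244: aaATTGGgttgtcatga
Tapbp, chr17:33919303-33919327: taaaatatttATTGGtcacttcact

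The length that RSEM assigned to a gene is weighted by the abundance of its transcript models. Its change with IFNγ went in different directions in the 3 cell types. For Nlrc5 it was -1003, 1817 and 516 bases in alpha, beta and delta cells, and for Erap1 928, -623 and 264 bases. The mean over the cell types did not pass for any of 5 genes (exact permutation, adjusted p between 0.707 and 0.77), and changes of opposite sign cancel in that mean. Lengths of Erap1 moved between 1754 and 4754 bases over the libraries. In TPM the Erap1 response was 0.55 in alpha cells (limma on log2(TPM + 0.1), adjusted p = 0.309), where the counts gave 1.37.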

How the data were processed

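RNA of 18 libraries was sequenced by the authors from rRNA-depleted, strand-marking Ovation SoLo libraries, aligned to GRCm38 with STAR 2.5.2b and quantified with RSEM (its version is not given in these sources). The deposited tables hold RSEM expected counts per gene, TPM and transcript length (in bases) made by the authors with RSEM. FPKM values, also made by the authors, were not used. Expected counts were rounded. edgeR 4.0.16 in R 4.3.3 fitted a mean per group over all 18 libraries (filterByExpr with minimum count 10, TMM, quasi-likelihood F-test, Benjamini-Hochberg adjustment over 17338 genes) for 12 comparisons. The study's own model held a batch term that the labels do not name, so the date in the file names served as an alternative. Standard errors are the log2 fold change over the root of F. Ratios used log2 of TPM plus 0.1. GC offsets came, in each library, from the trend over gene GC content of log2 CPM relative to the mean of all libraries. Symbols and positions are from GENCODE M21, not the release of the methods (99.38% of identifiers matched). Alternatives were DESeq2 1.42.0, limma 3.58.1, other scalings, filters, terms and left-out libraries. The fit was tested on simulated data.

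The named genes and gene lists were chosen with earlier results of these data known. Besides the 6 genes, up to 3 genes of a list were named, those called in most cell types and then by mean size, or the 2 highest in CPM where none was called, and 5 genes most like each. According to the methods every n was a separate biological sample, yet libraries share dates. In beta cells the same-numbered libraries deviated together (r = 0.22, 0.19 and 0.13 across genes), in alpha (0.09, 0.05 and -0.19) and delta cells (-0.05, 0.20 and 0.28) not in every pair. The sources used here do not say whether PCR copies were collapsed, and the number of libraries limits the precision. Some results of the listed genes are not reported here.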

Additional observations from a re-analysis of the deposited data

How the results depend on the processing

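The call of Nlrc5 and Tap1 as higher with IFNγ held in all 3 cell types under every alternative run. On TPM (log2 of TPM plus 0.1 or 1 in limma, and plus 1 without rRNA and mitochondrial genes) 2 of the 6 genes passed in alpha and 2 in delta cells, and with the date term 2 in delta cells. On TPM plus 0.1 the median log2 fold change of all genes was -0.22, 0.16 and -0.18 in alpha, beta and delta cells, beside -0.01, 0.0 and -0.05 from the counts. For the response of alpha minus beta cells 4 genes passed without the 3 libraries that stand apart, 2 without the low-count filter and 0 to 4 with 1 library left out (4 without alpha IFNγ 2). For delta minus alpha cells 1 passed without the filter. Between IFNγ-treated delta and alpha cells 3 passed with GC offsets, 3 without the libraries that stand apart and 0 to 2 with 1 library left out. Between IFNγ-treated delta and beta cells 0 passed with the date term (edgeR or DESeq2) and 5 on TPM plus 1, with or without rRNA and mitochondrial genes. Erap1 turned there to -0.47 with GC offsets and to -1.19, -1.17 and -1.39 on the 3 TPM scales. It also turned to -0.50, -0.48 and -0.62 on those scales between control delta and control alpha cells, and Nlrc5 to -0.98 with the date term between control delta and control beta cells. Between control alpha and beta cells 3 genes passed with GC offsets, 1 with the date term (edgeR or DESeq2), 1 without the libraries that stand apart and 0 to 1 with 1 library left out. Between control delta and alpha cells 0 passed on TPM, with only these cell types fitted and without the libraries that stand apart, 2 with the date term, 2 without the filter and 0 to 2 with 1 library left out. Between control delta and beta cells 1 passed with the date term, 1 with only these cell types fitted, 1 without the libraries that stand apart and 0 to 1 with 1 library left out. The change of the Tapbp to Tapbpl ratio was 0.33 with a pseudocount of 1 and 0.20 to 0.34 with 1 library left out. The cause of these changes was not tested. A further 85 sign turns over 22 results concerned values that passed in neither fit.

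With the replicate number as a block, 3, 5 and 5 of the 6 genes were higher in alpha, beta and delta cells, and with the block within each cell type 3, 6 and 5. Same-numbered IFNγ and control libraries of a cell type shared a date only for numbers 1 and 2 of beta cells. In alpha cells Tapbp was 1.08 with either block (edgeR adjusted p = 0.0543 and 0.0589). Either block gave 1 call between control alpha and beta cells (Tapbpl), and the block within cell types gave 0 between control delta and alpha cells (Erap1 0.39, adjusted p = 0.588).

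Over all genes, 163 were higher and 6 lower in alpha cells. These counts were 389 and 143 with DESeq2, 990 and 446 without the filter, 106 and 6 on TPM plus 0.1, 1798 and 1959 without alpha IFNγ 2 and 2455 and 2480 without the 3 libraries that stand apart. In delta cells 209 were higher and 32 lower, against 83 and 26 with the date term, 288 and 92 with DESeq2, 415 and 177 without the filter and 375 and 310 without those 3 libraries. In beta cells 183 were higher and 1 lower, against 259 and 80 without the filter. The 3 libraries of a group limit what a difference between cell types can show.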
